A study of Mus musculus with 10 samples.

Results

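The loss of Id3 was examined in stage 2 invariant natural killer T (iNKT) cells of the mouse thymus, the CD44-positive cells that do not yet carry NK1.1. The comparison set 3 arrays of Id3KO cells against 3 arrays of wild-type (WT) cells, out of 10 arrays in the series. It covered every probe set whose log2 intensity exceeded the table's median on 2 or more of the 10 arrays, which kept 25061 of 45037 probe sets and 11951 genes. A probe set is a group of short probes on an Affymetrix array that reads 1 transcript or a few related ones.

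Both groups came from C57BL/6 mice aged 6 weeks. WT stage 2 cells were sorted from WT thymus, and Id3KO stage 2 cells from the thymus of mice labelled as knockouts of Id3, in each case as cells that bound the CD1d tetramer and were CD24-negative, CD44-positive and NK1.1-negative. The other 4 arrays held stage 1 cells, 2 of each genotype from the same strain and age, which were CD44-negative and otherwise sorted alike. The labels call the arrays biological replicates and do not say how many mice each holds, so the p-values measure the spread between these samples.

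Id3 is a helix-loop-helix protein without a DNA-binding basic region. It pairs with E proteins, which are the transcription factors E2A (Tcf3), HEB (Tcf12) and E2-2 (Tcf4), and keeps them off the E-box, a DNA motif of the form CANNTG. iNKT cells are T cells whose nearly invariant receptor sees lipids on CD1d, and they need the zinc finger protein PLZF (Zbtb16). They mature in the thymus into NKT1 cells, which use T-bet and make interferon gamma, NKT2 cells, which make interleukin 4, and NKT17 cells, which make interleukin 17. The CD44-positive NK1.1-negative gate can hold cells of all these kinds.

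Genes of the sort and general markers of iNKT cells were measured first. Cd3d, Cd3e and Cd3g, chains of the T cell receptor complex, and Zbtb16 did not pass the test between the genotypes, and Zbtb16 read 889, 996 and 895 on the WT arrays and 1107, 943 and 904 on the Id3KO arrays (intensity, an arbitrary linear scale). Cd44 itself read 653, 797 and 858 in WT and 577, 280 and 507 in Id3KO, without overlap between the groups but short of the threshold (log2 fold change -0.82, adjusted p = 0.241 in limma). Its stage 1 levels were 147 and 224 in WT and 130 and 255 in Id3KO, so Id3KO stage 2 array 2, at 280, lay nearest to stage 1. Cd24a was between 40.2 and 60.9 on all 6 arrays. A probe set shared by Klrb1b and Klrb1c, the gene of NK1.1, read 115, 139.5 and 129 in WT and 79.0, 81.2 and 104 in Id3KO. It was not called (-0.54, adjusted p = 0.0833 in limma). The median of the table is an intensity of 55.1, and values near or below it are treated here as background.

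Thy1, a surface glycoprotein of T cells, had the largest change among the tested iNKT and sort markers. It stood at 3019, 2852 and 3061 in WT and at 1234, 834 and 1437 in Id3KO (log2 fold change -1.39 ± 0.17 SE, n = 3 and 3, limma adjusted p = 0.00385). In these sorted populations, fewer cells of a kind and less RNA per cell cannot be told apart, and that holds for every gene below. Replicate arrays of a stage 2 group correlated at 0.975 to 0.989 over the probe sets kept for the test, and arrays of different genotype at 0.962 to 0.975. The first principal component of the 6 arrays held 43.8% of their variance and separated the genotypes.

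Id3 was lower in all 3 Id3KO arrays. It read 1065, 831 and 818 in WT and 67.2, 69.8 and 54.2 in Id3KO, which is near background. The log2 fold change was -3.83 ± 0.13 (SE), with the smallest adjusted p of the comparison (limma, 9.02e-06). The labels do not say which stretch of Id3 was removed or whether this probe set reads it.

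In all, 457 probe sets of 326 genes were higher in Id3KO and 598 probe sets of 450 genes were lower (adjusted p under 0.05). These are 1.82% and 2.39% of those tested, and 4.21% together. In every one of these called probe sets the WT and Id3KO arrays were apart, while 21.4% of all probe sets tested showed no overlap. The median log2 fold change was 0.72 among the higher calls and -0.73 among the lower, and 122 and 139 of them passed a fold change of 2. Counted once per gene by the brightest probe set, 282 genes (2.36%) rose and 385 (3.22%) fell, or 5.58% of the genes tested, and the median over all genes was 0.01.

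The number of calls moved with single arrays. Without WT array 3 there were 238 higher and 264 lower probe sets, without WT array 2 there were 248 and 332, and without Id3KO array 2 there were 302 and 348. Of the 1055 calls, 484 were still called without WT array 3, and 542 without WT array 2. Each comparison was therefore refitted under 19 other settings, and a call is named steady below when the gene kept it in every setting in which it was tested. Of the 157 called genes followed this way, 86 were steady and none reversed.

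Some calls rest on a level near background in 1 group. Probe sets kept only through the WT arrays numbered 376, of which 54 were called, all lower. Those kept only through the Id3KO arrays numbered 460, of which 47 were called, all higher. Such members could be called in 1 direction only, and their fold changes depend on the background of the array. They include Ahr and Pde5a, kept only through the WT arrays, and Garem1, Tcf24 and Irs1, kept only through the Id3KO arrays.

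**Figure D1:**
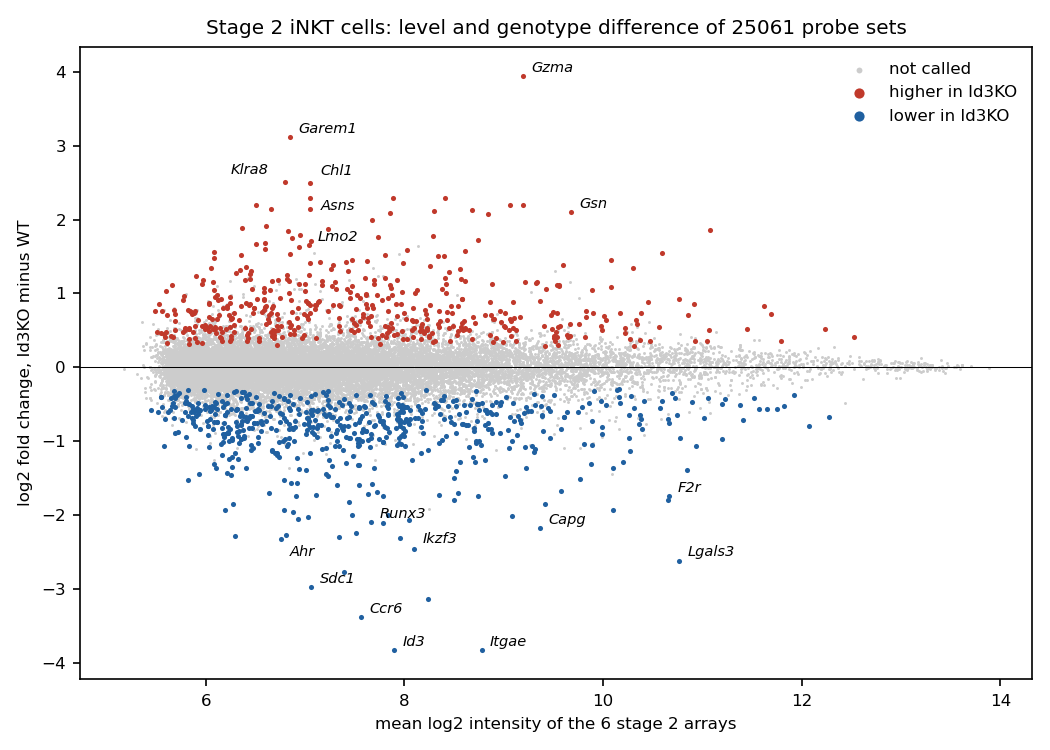
Each point is 1 of the 25061 probe sets, by its mean log2 intensity on the 6 stage 2 arrays (x axis) and its log2 fold change, Id3KO minus WT (y axis); red points are the 457 called higher and blue points the 598 called lower. Gzma stands highest at 3.95, and Itgae and Id3 lowest at -3.83.

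Gzma, which encodes the cytotoxic protease granzyme A, rose most. It read 148, 183 and 123 in WT and 1923, 3087 and 2047 in Id3KO, 15.4 times the WT level (3.95 ± 0.30 SE on the log2 scale, adjusted p = 0.000454 in limma). All 3 Id3KO arrays were above all 3 WT arrays, which holds for every probe set called higher. Gzmb, the gene of the related protease granzyme B, went the other way, from 131, 148 and 110 to 57.7, 62.0 and 59.2 (log2 fold change -1.11 ± 0.12, adjusted p = 0.00163). Both calls were steady.

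Next came Garem1, an adaptor of growth factor signalling, at 39.8, 39.6 and 37.9 in WT and 544, 259 and 274 in Id3KO. Its WT level was background, so the log2 fold change of 3.11 is tied to that background. The same holds for Klra8, Tcf24, Exph5, Irs1, Lratd1 and Fgf18 among the 25 largest rises. Chl1, Asns, Homer2, Fbn2, Pdgfc, Plce1 and Cttn had WT arrays on both sides of the background level, so their fold changes share that limit. Garem1 was steady, with an adjusted p of 0.000542 in limma.

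Genes of secreted and matrix proteins stood among the 25 largest rises, namely Prg4 (lubricin), Adamts20 (a metalloprotease), Fbn2 (fibrillin 2), Pdgfc and Fgf18 (growth factors), Itih5 (an inter-alpha-trypsin inhibitor chain) and Stc2 (a stanniocalcin). Their log2 fold changes ran from 1.67 to 2.12. Itih5 was at 122, 171 and 234 in WT and at 691, 588 and 480 in Id3KO. Its 2 other probe sets also rose, by 1.37 and 0.92. This grouping was made after the values were seen, and it has no test.

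Gsn, the gene of the actin-severing protein gelsolin, had 433, 330 and 431 in WT and 2221, 1516 and 1435 in Id3KO (log2 fold change 2.10 ± 0.24, limma adjusted p = 0.00232). Its 4 other probe sets rose as well, by 2.20, 2.19, 1.99 and 0.50. Arhgap24, a GTPase-activating protein that acts on the cytoskeleton, rose by 2.29, and Chl1, a cell adhesion molecule of the L1 family, by 2.49. Among signalling genes, the scaffold Homer2 rose by 2.14, the kinase Mapk12 (p38 gamma) by 1.70 and the phospholipase Plce1 by 1.64. Other probe sets of Arhgap24 (0.41), Homer2 (1.16 and 0.01) and Mapk12 (0.20) were not called. Lztfl1, known as a regulator of the ciliary BBSome complex, rose from 189, 232 and 299 to 777, 804 and 750 (log2 fold change 1.72 ± 0.16, limma adjusted p = 0.000875), while its 4 other probe sets gave 0.65, 0.67, 0.56 and 0.32, of which only the first was called.

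Irs1 (insulin receptor substrate 1), Hdc (the histamine-forming enzyme) and Cttn (cortactin) were called at log2 fold changes of 1.89, 1.88 and 1.60 but lost the call in 10 settings each. Leaving out WT array 2 or 3 or Id3KO array 1, or either WT stage 1 array, was enough for all 3 genes. WT array 1 was enough for Irs1 and Cttn, Id3KO array 3 for Irs1, Id3KO array 2 for Cttn, and either Id3KO stage 1 array for Hdc. The highest adjusted p was 0.115 for Irs1 without WT array 3, and 0.108 for Hdc and 0.128 for Cttn without WT array 2. Single Id3KO arrays also stood apart: Hdc read 226, 587 and 178, and Cttn 271, 139 and 127. Second probe sets of Hdc (0.49) and Cttn (0.99) were not called.

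Itgae, which encodes the integrin chain CD103 that binds E-cadherin on epithelium, fell as far as Id3. It read 1239, 1741 and 2090 in WT and 88.3, 130 and 137 in Id3KO (log2 fold change -3.83 ± 0.21, limma adjusted p = 0.000179). A second probe set fell by 3.14 on the log2 scale. Its partner chain Itgb7 went from 1245, 1313 and 1649 to 724, 657 and 876, a log2 fold change of -0.90 ± 0.15.

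Lgals3, the gene of galectin 3, a sugar-binding protein, had 3800, 4396 and 4799 in WT and 519, 686 and 985 in Id3KO (-2.61 ± 0.23, adjusted p = 0.000751 in limma). Capg, an actin-capping protein of the gelsolin family, had 1232, 1397 and 1583 in WT and 286, 335 and 309 in Id3KO (-2.17 ± 0.10, adjusted p = 9.25e-05). Gsn and Capg, both members of that family, thus moved in opposite directions. Their arrays did not overlap between the genotypes, which holds for every call. F2r, the thrombin receptor PAR1, fell from 2739, 2762 and 3471 to 755, 1021 and 915 (-1.74 ± 0.13).

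Other large falls were in Ctla2a, a cysteine protease inhibitor, Prkcb, protein kinase C beta, Pde5a, a phosphodiesterase of cyclic GMP, Lpar6, a lysophosphatidic acid receptor, and Pxdc1. Their log2 fold changes lay between -1.70 and -2.03. All 5 were steady. Other Pde5a probe sets gave -1.52, called, and -0.70, not called. Selenop, a selenium transport protein, fell by 2.01 on the log2 scale but missed the threshold without WT array 3 (adjusted p = 0.0573). Armcx2 fell by 1.74 and missed it without WT array 2, WT array 3 or Id3KO array 1, and with only the 6 stage 2 arrays (at most 0.0763, without WT array 3).

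**Figure D2:**
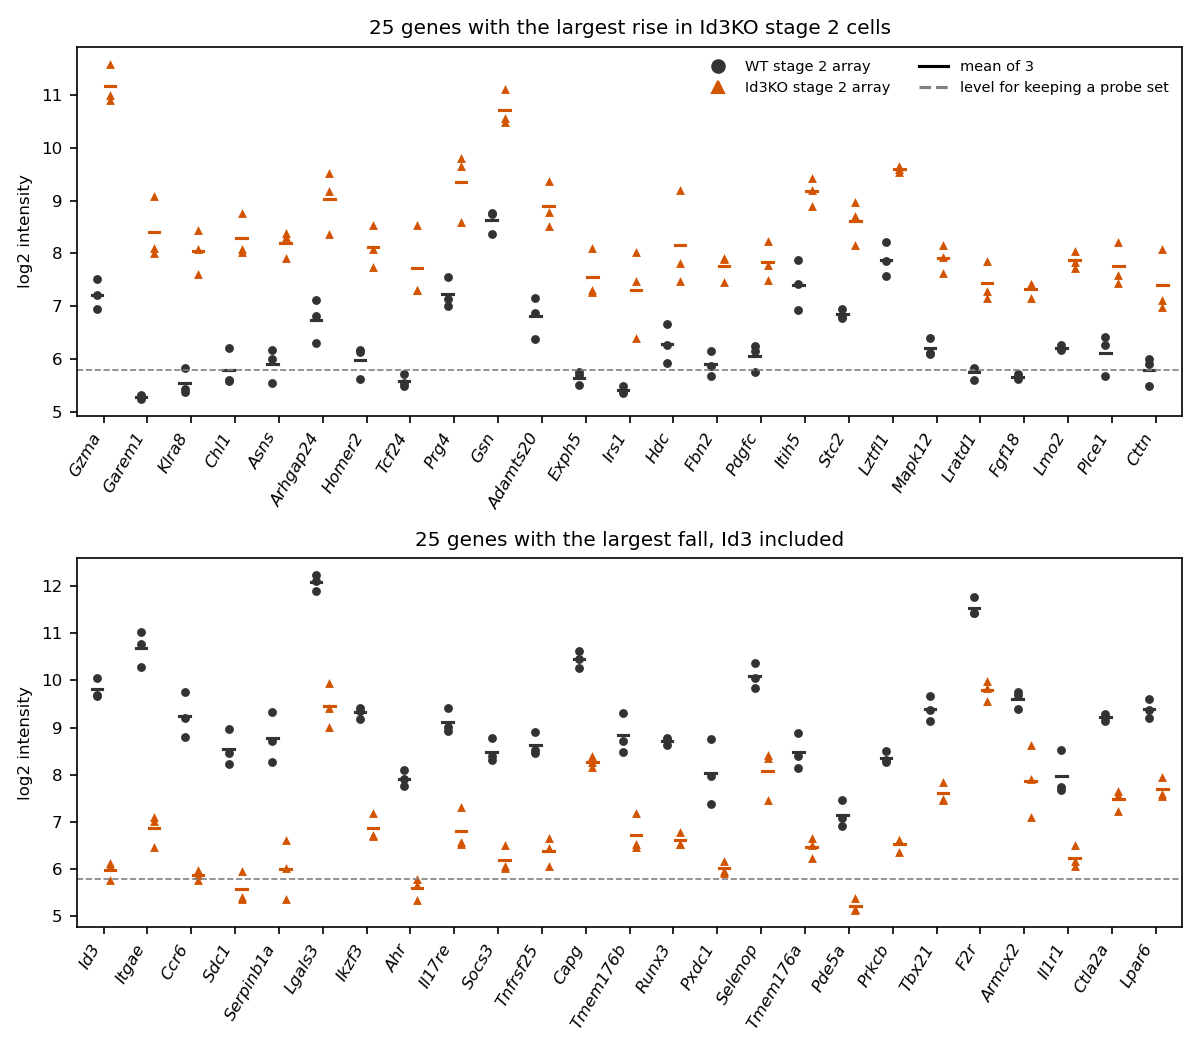
Log2 intensity (y axis) of the 25 genes that rose most (upper panel) and the 25 that fell most, Id3 included (lower panel), on each of the 3 WT arrays (circles) and 3 Id3KO arrays (triangles); bars are means of 3 and the dashed line is the level of 5.78 above which a probe set counted as measured. The 50 were chosen among calls without overlap between the genotypes, and 7 of the rises start from a WT mean below the line.

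Since E proteins bind E-boxes, the promoters were searched for the motifs CAGCTG and CAGGTG on either strand (CACCTG is CAGGTG read on the other strand). Promoters were RefSeq windows of 250 bases before to 50 after each start, build GRCm38.p6. Of all 32851 promoters in the table, 32.9% held at least 1 of these motifs. The share was 31.1% for the genes tested, 31.9% for 310 promoters of genes that rose and 34.4% for 413 promoters of genes that fell. For CAGCTG alone the shares were 15.6% for the genes tested, 14.5% for those that rose and 20.1% for those that fell. For CAGGTG alone they were 18.7%, 20.3% and 20.1%. Entries were found for 9650 of the 11951 genes tested.

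The 250 bases before the start are given below for Gzma and Ccr9, which rose, and for Lgals3, Capg and Tbx21, which fell, as examples of described genes whose windows hold a motif. The sequences read 5′ to 3′ on the strand of the gene, and capitals mark the matches. They span chr13:113100982-113101231 (minus strand) for Gzma, chr9:123766961-123767210 (plus) for Ccr9, chr14:47373610-47373859 (plus) for Lgals3, chr6:72549397-72549646 (plus) for Capg and chr11:97115332-97115581 (minus) for Tbx21.
Gzma: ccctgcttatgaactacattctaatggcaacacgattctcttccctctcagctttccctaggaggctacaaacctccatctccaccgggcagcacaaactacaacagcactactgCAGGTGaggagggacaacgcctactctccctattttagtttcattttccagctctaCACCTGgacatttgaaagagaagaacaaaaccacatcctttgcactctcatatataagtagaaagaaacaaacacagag
Ccr9: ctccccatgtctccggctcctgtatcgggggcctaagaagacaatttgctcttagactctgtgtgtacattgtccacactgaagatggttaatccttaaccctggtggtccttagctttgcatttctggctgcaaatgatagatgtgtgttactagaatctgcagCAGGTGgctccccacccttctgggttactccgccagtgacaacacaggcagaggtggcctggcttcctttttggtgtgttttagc
Lgals3: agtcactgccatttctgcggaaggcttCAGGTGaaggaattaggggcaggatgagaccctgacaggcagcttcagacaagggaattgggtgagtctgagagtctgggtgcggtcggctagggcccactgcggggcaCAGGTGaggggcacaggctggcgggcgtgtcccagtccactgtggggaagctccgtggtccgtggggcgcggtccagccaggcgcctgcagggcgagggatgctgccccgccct
Capg: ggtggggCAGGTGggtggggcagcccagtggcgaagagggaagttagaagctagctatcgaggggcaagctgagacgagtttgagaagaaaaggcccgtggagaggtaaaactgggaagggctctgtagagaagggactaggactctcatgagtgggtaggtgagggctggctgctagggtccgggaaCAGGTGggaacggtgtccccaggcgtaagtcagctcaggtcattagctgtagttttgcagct
Tbx21: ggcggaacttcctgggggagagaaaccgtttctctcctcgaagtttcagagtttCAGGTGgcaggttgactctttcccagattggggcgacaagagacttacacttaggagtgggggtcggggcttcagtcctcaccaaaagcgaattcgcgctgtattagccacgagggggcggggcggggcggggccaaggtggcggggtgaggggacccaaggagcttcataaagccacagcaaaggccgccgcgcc
Gzma, Lgals3 and Capg hold 2 matches each, and Ccr9 and Tbx21 hold 1. Runx3 and Lef1 also have a window that holds 1 and are not shown. The 250 bases before each listed start of Ccr6, Bcl6, Socs3, Asns, Klra8, Il1r1, Rora, Fgf18 and Id3 hold none of these letters. A match is a description of the sequence, and binding was not measured.

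The E protein and Id family was examined next, with the LIM-only proteins that join helix-loop-helix factors in complexes. Of 9 tested genes on this list of 12, 1 rose and 2 fell, all steady, beside 5.58% of all genes called. One of the falls is Id3 itself, the targeted gene. Lmo2, a LIM-only protein that bridges helix-loop-helix and GATA factors, rose from 72.5, 73.5 and 76.8 to 230, 265 and 212 (log2 fold change 1.66 ± 0.10, limma adjusted p = 0.000179). Lmo4 fell from 447, 466 and 498 to 249, 227 and 268 (-0.93 ± 0.10, adjusted p = 0.00205). The arrays within each group lay close together for both genes.

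Transcripts of the E proteins themselves were not called: Tcf3 had a log2 fold change of -0.06, Tcf12 of -0.12 and Tcf4 of -0.12. Id2, the other Id gene expressed in these cells, read 1737, 1860 and 2308 in WT and 1111, 995 and 1571 in Id3KO. The difference of -0.70 missed the threshold (adjusted p = 0.0583), although the groups did not overlap. In 6 other settings it passed, among them the fit without Id3KO array 3, with a lowest adjusted p of 0.0114. Its highest was 0.185, without WT array 3.

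Lists of genes are described below by the number of tested members that rose or fell and by their median log2 fold change, beside 2.36% of genes higher, 3.22% lower and a median of 0.01 over all genes. No test of a list was made.

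Of 9 tested regulators of the NKT17 program 3 fell, all steady, none rose and 6 were not called, with a median of -0.79. Ahr, the aryl hydrocarbon receptor, a ligand-activated transcription factor, went from 275, 215 and 239 to 50.5, 55.1 and 40.6, at or below background (-2.32 ± 0.14, limma adjusted p = 0.000179). Its probe set was kept only through the WT arrays, so Ahr could be called lower only. Rora, a nuclear receptor, went from 154, 138 and 174 to 66.0, 67.0 and 75.3 (-1.16 ± 0.10), and its 5 other probe sets fell by 1.03 to 1.70. Maf, the transcription factor c-Maf, went from 647, 599 and 681 to 343, 364 and 337 (-0.88 ± 0.12, adjusted p = 0.00482). Of its other probe sets, those at -0.64 and -0.56 were called, and those at -0.91, -0.49 and -0.03 were not. Irf4 (-0.79, adjusted p = 0.104) passed only with the replicate number as a block, and Blk (-0.92, 0.298), whose Id3KO array 2 at 502 lay among the WT values of 383 to 552, passed without that array (adjusted p = 0.00538).

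Receptors and effectors of NKT17 cells showed the lowest median of the 40 lists, -1.59. Of 14 tested genes 11 fell and none rose, and all 14 had a log2 fold change below 0. Ccr6, the receptor for the chemokine CCL20, went from 446, 589 and 867 to 58.5, 63.0 and 54.6 (-3.38 ± 0.21, limma adjusted p = 0.000206). Il17re, a chain of the interleukin 17C receptor, went from 483, 517 and 677 to 92.6, 159 and 95.4 (-2.30 ± 0.23). Its other probe sets gave -0.71, called, and -0.41, not called. Il1r1, the interleukin 1 receptor, went from 214, 203 and 367 to 66.6, 91.2 and 71.7 (-1.73 ± 0.23).

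The heparan sulphate proteoglycan Sdc1 (CD138) fell by 2.97 on the log2 scale, the protease inhibitor Serpinb1a by 2.77, and the membrane proteins Tmem176b and Tmem176a by 2.11 and 2.00. Other Sdc1 probe sets gave -1.93 and -0.96, called, and 0.01, not called. For all 11 fallen members the highest WT value was on WT array 3. Serpinb1a, for example, had 307 on array 1 and 644 on array 3. The 8 genes named with values so far, Itgb7 included, were steady. Aqp3 (-1.05) missed the threshold with only the 6 stage 2 arrays (adjusted p = 0.0513), Cxcr6 (-0.84) there and without Id3KO array 2 (0.0593). Ltb4r1 (-0.59) missed it in 12 settings, among them leaving out WT array 1 or 3 or any 1 Id3KO or stage 1 array (at most 0.108, without Id3KO array 1). Il17rb (-0.20), a receptor for interleukin 25, and Nrp1 (-0.19) were not called, and Cd163l1, at 1642, 1826 and 1922 against 310, 1064 and 869, was not either (-1.44, adjusted p = 0.221). Il17a, Il17f, Il22 and Il23r had no probe set kept for the test.

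Of 25 tested regulators and effectors of the NKT1 program 13 fell, 8 of them steady, 1 rose (Gzma) and 11 were not called, with a median of -0.73. Tbx21, which encodes T-bet, went from 809, 660 and 567 to 176, 180 and 231 (-1.79 ± 0.19, limma adjusted p = 0.00185). Runx3, a runt-family factor that works with T-bet, went from 394, 437 and 425 to 92.2, 110 and 93.2 (-2.09 ± 0.12, adjusted p = 0.000179), though a second Runx3 probe set gave -0.08 and was not called. The chemokine receptor Cxcr3, a T-bet target, went from 1452, 1236 and 1411 to 505, 303 and 506 (-1.68 ± 0.20).

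Ifng itself was near background in this gate, at 65.3, 77.9 and 78.2 in WT and 48.1, 43.2 and 45.8 in Id3KO (-0.69 ± 0.09, limma adjusted p = 0.00398). The interleukin 18 receptor chain Il18rap fell by 1.58 on the log2 scale, the surface protein Cd7 by 1.68 and the secreted fibrinogen-like protein Fgl2 by 1.45. Without WT array 3 the list held 8 falls in place of 13. Il18r1, Ctsw, Il2rb, Il12rb1 and Il10rb, with log2 fold changes from -0.37 to -1.13, each missed the threshold without that array (adjusted p from 0.0634 for Il12rb1 to 0.117 for Il2rb), and without some other stage 2 arrays. Nkg7, a granule protein, read 575, 608 and 595 in WT and 83.3, 231 and 199 in Id3KO, and its difference of -1.92 missed the threshold (adjusted p = 0.0561, with 0.0240 to 0.155 over the settings). Eomes, the T-box factor related to T-bet, was not called (0.61, adjusted p = 0.221).

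NK cell receptors were split, and of 9 tested genes 2 rose and 3 fell. Klra8 (Ly49H), an activating receptor, rose from 41.7, 56.9 and 43.3 to 196, 349 and 273 (2.50 ± 0.28, limma adjusted p = 0.002). Klra7 (Ly49G), an inhibitory one, rose from 72.8, 64.0 and 66.2 to 240, 246 and 127 (1.53 ± 0.27, adjusted p = 0.0172), but not without WT array 2 or 3 or Id3KO array 1 or 2 (at most 0.0663, without WT array 3). A probe set shared by Klra3 and Klra9 rose from 789, 1381 and 1343 to 4171, 3855 and 4285 (1.85). The Ly49 genes are close paralogues, and these probe sets can read more than 1 of them, so which gene carries the rise is uncertain. Klrd1 (CD94), Klrb1f and Cd160 fell by 1.04, 0.74 and 0.78 on the log2 scale, and none of the 3 calls was left without WT array 3. The highest adjusted p was 0.106 for Klrd1 without Id3KO array 1, 0.112 for Cd160 without WT array 2 and 0.0813 for Klrb1f without WT array 3. Klrd1 and Cd160 also missed the threshold without WT array 2 or Id3KO array 1, and Cd160 and Klrb1f without WT array 1. Klrd1 missed it without Id3KO array 2 or either WT stage 1 array, and Cd160 without Id3KO array 3 or either Id3KO stage 1 array. The NKR-P1A gene Klrb1a, at 69.9, 79.2 and 111 in WT and 123, 219 and 204 in Id3KO, missed the threshold (1.06, adjusted p = 0.0536, with 0.0221 to 0.152 over the settings).

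Of 17 tested genes of follicular helper T cells, which help B cells in germinal centres, 9 rose, 7 of them steady, none fell and 8 were not called, with a median of 0.59. Bcl6, the repressor that defines these cells, went from 71.9, 98.7 and 91.4 to 207, 194 and 168 (1.12 ± 0.13, limma adjusted p = 0.00299). Tox2, an HMG-box factor, went from 715, 609 and 635 to 1950, 2004 and 1469 (1.46 ± 0.16, adjusted p = 0.00205). No Id3KO array overlapped with WT for either gene, which holds for every call.

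The surface proteins Cd200, Btla and Slamf6 rose by 0.84, 0.56 and 0.63, and the BMP antagonist Sostdc1 by 1.05 from near background. Pdcd1 (PD-1) rose from 974, 935 and 1064 to 1397, 1549 and 1360 (0.53 ± 0.09) and missed the threshold without WT array 2 (adjusted p = 0.0551). Izumo1r (folate receptor 4) rose by 0.59 and missed it without WT array 1 or 2, without any 1 Id3KO stage 2 array and with only the 6 stage 2 arrays (at most 0.0730, without Id3KO array 3). Cxcr5, the homing receptor for B cell follicles, read 92.1, 76.1 and 76.7 in WT and 172, 290 and 116 in Id3KO, not called (1.14 ± 0.28, adjusted p = 0.0623) but past the threshold in 4 settings, 0.0138 to 0.180 over all of them. The groups did not overlap, and Id3KO array 3 was the lowest of its group. Icos, which follicular helper cells need, had a log2 fold change of -0.48 (adjusted p = 0.056, with 0.0317 to 0.183 over the settings).

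**Figure D3:**
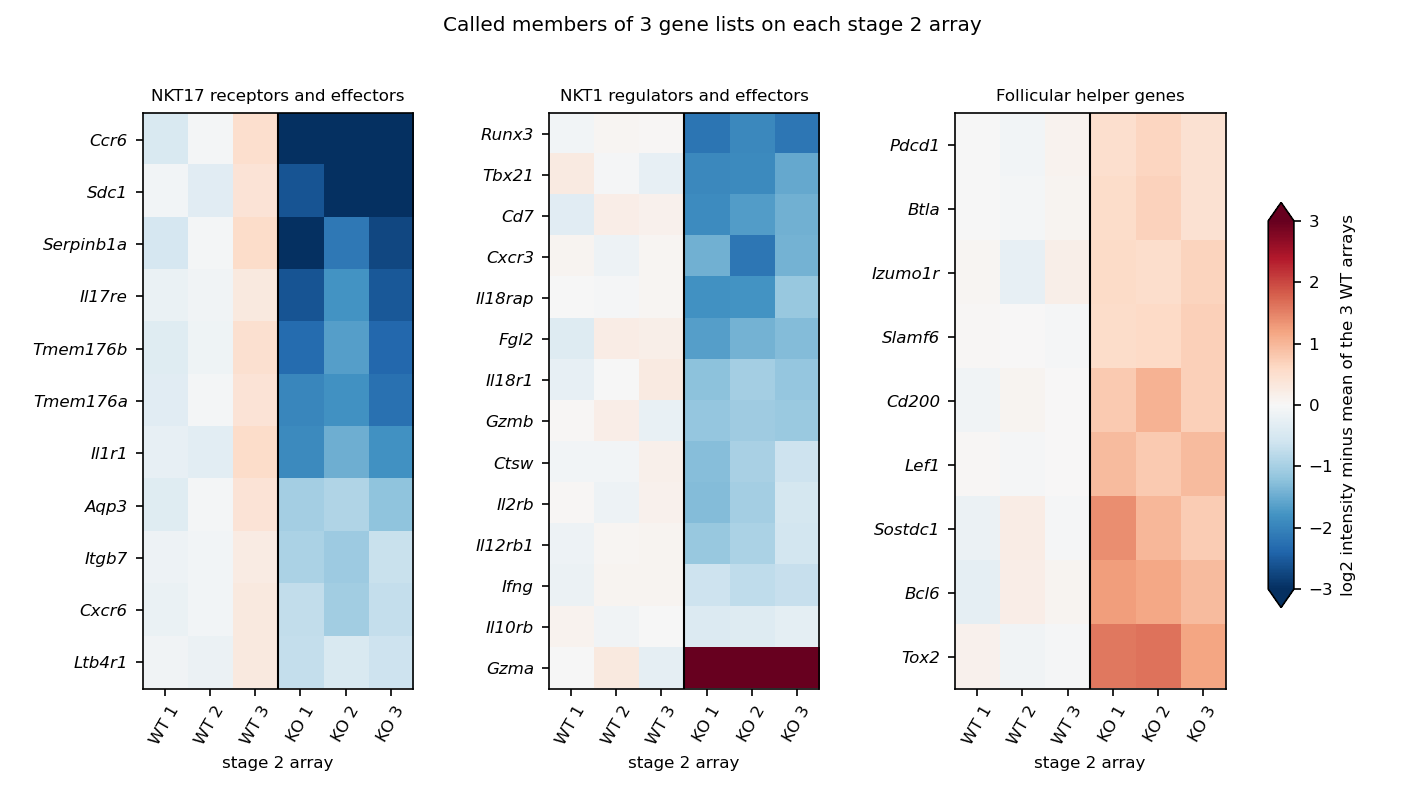
Log2 intensity of each stage 2 array minus the mean of the 3 WT arrays (colour, cut at 3 and -3) for the called members of 3 lists: NKT17 receptors and effectors, NKT1 genes and follicular helper genes. All NKT17 members are low on the 3 Id3KO arrays and highest on WT array 3, Gzma alone is high among the NKT1 members, and the 9 follicular helper members are high on all Id3KO arrays.

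In the NKT2 program, Zbtb16 (0.08), Gata3 (0.10) and Il4 (-0.12) were not called. Of 12 tested genes on the list, 2 rose (Plac8 and Izumo1r) and 2 fell (Il13 and Ccr8), none by more than 0.59 on the log2 scale. Not 1 of the 4 was steady: Il13 and Ccr8 missed the threshold without WT array 3 or any Id3KO stage 2 array, and Il13 also without WT array 1 or 2 (at most 0.109 and 0.0764). Plac8 missed it without WT array 2 or 3 (at most 0.056).

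Among factors that build the early T lineage, changes went both ways. Of 22 tested genes 4 rose and 4 fell, with a median of -0.17. Ikzf3 (Aiolos), an Ikaros-family zinc finger protein, fell from 581, 687 and 655 to 104, 145 and 105 (-2.45 ± 0.22, limma adjusted p = 0.000884), and its 2 other probe sets gave -0.56 (called) and -0.43 (not called). Its relatives Ikzf1 (0.01) and Ikzf2 (-0.31) were not called. Notch1, the receptor that commits cells to the T lineage, fell from 663, 752 and 798 to 472, 431 and 440 (-0.72 ± 0.10), although a second probe set (-0.32) was not called.

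Lef1, an HMG-box partner of beta-catenin, rose from 494, 469 and 486 to 940, 837 and 932 (0.90 ± 0.09, limma adjusted p = 0.00131), with a second probe set at 1.10. Myb rose from 749, 636 and 740 to 1027, 1107 and 1056 (0.59 ± 0.10). Gfi1 (1.12), a zinc finger repressor, missed the threshold without WT array 3 (adjusted p = 0.0588), where the list held 2 rises in place of 4. Hhex (0.56) missed it in 11 settings, among them leaving out any stage 2 array or either WT stage 1 array (at most 0.137, without WT array 2). Dtx1, a Notch target, fell by 1.05 and missed it without WT array 2 or Id3KO array 1 or 2 (at most 0.0597, without WT array 2).

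Of 19 tested receptors for homing 8 fell, 1 rose and 10 were not called. Ccr9, the receptor for the thymic and gut chemokine CCL25, rose from 911, 864 and 936 to 2759, 2536 and 2637 (1.55 ± 0.10, limma adjusted p = 0.000211). Its other 4 probe sets gave 1.58 and 0.98, both called, and 0.49 and 0.25, not called. Gpr183 (EBI2), an oxysterol receptor, fell from 164, 170 and 191 to 89.2, 89.2 and 113 (-0.85 ± 0.12). Ccr6, Cxcr3 and Gpr183 were the steady falls. The smaller ones, Ccr8, Cx3cr1, Ptger4, Cxcr6 and Ltb4r1 (-0.38 to -0.84), were not: the list held 4 falls without WT array 3 or Id3KO array 1, 3 without Id3KO array 2, and 5 without WT array 1, Id3KO array 3 or either WT stage 1 array. Without Id3KO array 3 it held 3 rises.

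In the adhesion list of 24 tested genes, 7 fell and 3 rose. Icam1, a ligand of the integrin LFA-1, fell from 208, 248 and 250 to 94.9, 114 and 129 (-1.07 ± 0.16, limma adjusted p = 0.00883). Cd2, an adhesion receptor that costimulates T cells, rose from 385, 502 and 560 to 1046, 893 and 1044 (1.06 ± 0.15). The tetraspanin Cd81 rose from 281, 274 and 247 to 428, 453 and 458 (0.74 ± 0.08). Itgae, Itgb7, Icam1 and the 3 rises, Chl1 included, were steady. The falls of Itgal, Cd96, Selplg and Emb (-0.50 to -0.82) were not, and the list held 3 falls without WT array 3 or Id3KO array 2 and 4 without Id3KO array 1.

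Of 16 interleukin receptor genes 8 fell, none rose and 8 were not called, with a median of -0.57. The steady ones were Il17re, Il1r1 and Il18rap. The others include Il7r, whose ligand keeps T cells alive, which read 2248, 3001 and 3369 in WT and 1515, 964 and 1689 in Id3KO (-1.07 ± 0.21, limma adjusted p = 0.0282). It missed the threshold without WT array 2 or 3, Id3KO array 1 or either WT stage 1 array (at most 0.107, without WT array 3). The list held 3 falls without WT array 3, 4 without Id3KO array 1, and 5 without WT array 2 or either WT stage 1 array.

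Of 21 genes of the interferon gamma and tumour necrosis factor systems, 7 fell and none rose. Tnfrsf25 (DR3), a death domain receptor, fell from 369, 350 and 483 to 87.2, 101 and 66.6 (-2.24 ± 0.17, limma adjusted p = 0.000476). Both TNF receptors fell, Tnfrsf1b from 574, 615 and 621 to 295, 324 and 270 (-1.03 ± 0.08) and Tnfrsf1a from 287, 234 and 250 to 173, 130 and 131 (-0.83 ± 0.13), but a second Tnfrsf1b probe set (0.03) was not called. Ifngr2, a chain of the interferon gamma receptor, fell by 0.76, with a second probe set at -0.08, and the cytokine gene Lta by 0.58. Ltb (-0.87) and Ifngr1 (-0.72) missed the threshold without WT array 3 or Id3KO array 1 (at most 0.0810 and 0.110, without WT array 3), Ltb also without Id3KO array 2 and Ifngr1 without WT array 1 or 2 or Id3KO array 3.

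Downstream of these receptors 1 gene of 20 was called, which is 5.0% beside 5.58% of all genes. Socs3, the feedback inhibitor of gp130 and STAT3 signalling, fell from 337, 317 and 437 to 64.8, 66.7 and 91.2 (-2.29 ± 0.17, limma adjusted p = 0.000454), and both other probe sets fell, by 1.53 and 0.35. The other 19 SOCS, STAT, JAK and PIM genes were not called, among them Stat3 (-0.16) and Socs1 (-0.15). Without Id3KO array 3, 2 genes of this list fell. In the TGF-beta list of 19, 4 genes fell. The SMAD corepressor Ski (-0.76 ± 0.11) was steady, while Skil, Tgfbr1 and Acvr1b were not, and 1 of the 4 remained a call without WT array 3 and 2 without WT array 2.

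Of 24 proximal antigen receptor signalling genes 2 rose and 3 fell, with a median of -0.02. That is 20.8% called, beside 5.58% of all genes. The phosphatase Ptpn22, which restrains the receptor, fell from 343, 395 and 382 to 220, 215 and 243 (-0.72 ± 0.10, limma adjusted p = 0.00704). Ubash3b, another inhibitor, fell from 375, 312 and 345 to 219, 167 and 152 (-0.95 ± 0.14). The rises of Cd28 and Ubash3a (0.59 and 0.61) and the fall of Pag1 (-1.31) were lost without WT array 3, and the highest adjusted p of the 3 was 0.110, for Cd28 without WT array 2. Cd28 also missed the threshold without WT array 1, Id3KO array 1 or 3 or either WT stage 1 array, and Pag1 without WT array 2 or Id3KO array 3.

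Of 28 early response genes 3 rose and 2 fell, with a median of 0.01. Fosl2, an AP-1 subunit, fell from 91.5, 99.5 and 117 to 53.2, 50.9 and 45.8 (-1.03 ± 0.11), with a second probe set at 0.02. Egr1 (0.02) and Egr2 (0.36, adjusted p = 0.142), which are induced by receptor signals, were not called. The 3 rises on this list, Spry1, Spred2 and Cd69 (0.35 to 0.56), were all lost without WT array 2, WT array 3, Id3KO array 1 or Id3KO array 2, with adjusted p of at most 0.125, and 1 of the 3 was left when any other array was left out. Dusp5 (-0.54), a phosphatase of ERK, lost its call whichever array was left out (at most 0.135). In the list of double-positive thymocyte genes Ptpn22 and Cd1d1 (-0.78) fell among 10 tested, and Cd1d1 missed the threshold in 12 settings (at most 0.143, without WT array 3), while Ptpn22 was steady. Among the SLAM receptors and their adaptor, through which iNKT cells are selected, Slamf6 rose (0.63 ± 0.07, adjusted p = 0.0022) from 222, 219 and 213 to 321, 332 and 359, and the other 9 were not called.

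Of 18 S100, galectin and annexin genes 6 fell, none rose and 12 were not called, with a median of -0.25. S100a4, a calcium sensor of motile cells, fell from 1259, 1556 and 1620 to 378, 594 and 620 (-1.50 ± 0.21, limma adjusted p = 0.00638). Anxa6, a membrane-binding annexin, fell from 580, 618 and 625 to 201, 193 and 257 (-1.50 ± 0.11), and its 3 other probe sets gave -1.10 and -0.93, called, and -0.65, not called. Lgals1 (galectin 1) fell from 5486, 6234 and 5275 to 3083, 3365 and 3394 (-0.79 ± 0.11). Besides Gsn and Capg, 4 of 27 actin-binding genes were called, all lower, and none was left without WT array 2 or WT array 3. With Capg the list held 5 falls, which became 2 without any other stage 2 array and 3 without any stage 1 array, and 2 genes rose without Id3KO array 3.

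Of 31 amino acid and ATF4 stress response genes 4 rose, none fell and 27 were not called, with a median of 0.17. Asns, asparagine synthetase, rose from 72.3, 46.6 and 63.7 to 318, 333 and 241 (2.30 ± 0.25, limma adjusted p = 0.00187). Stc2 rose from 124, 113 and 109 to 420, 503 and 285 (1.77 ± 0.19), and the serine hydroxymethyltransferase Shmt1 from 300.4, 248 and 247 to 408, 403 and 375 (0.58 ± 0.09), where 3 other Shmt1 probe sets were not called. Slc38a2 (0.39), a glutamine transporter, missed the threshold without WT array 2 or 3 or Id3KO array 1 or 2 (at most 0.0919, without WT array 3).

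Of 25 cholesterol genes 3 fell, and none of the 3 is an enzyme of cholesterol synthesis. The nuclear receptor Rxra fell from 201, 209 and 224 to 95.8, 94.5 and 106 (-1.10 ± 0.08, limma adjusted p = 0.00045), with a second probe set at -0.15, and the cholesterol exporter Abca1 from 174, 183 and 252 to 91.5, 43.1 and 77.9 (-1.57 ± 0.26). Abca1 missed the threshold with only the 6 stage 2 arrays (adjusted p = 0.0506). Mylip (-0.89), which degrades the LDL receptor, did so without WT array 2 or 3 or Id3KO array 2 (at most 0.0710, without WT array 2).

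Of 39 Myc and ribosome biogenesis genes 5 rose and 34 were not called, with a median of 0.16, and 36 had a log2 fold change above 0. None of the 5 was called without WT array 2 or WT array 3. The list held 3 rises without either WT stage 1 array, 2 without Id3KO array 3 or either Id3KO stage 1 array, and 1 without Id3KO array 1. Of 28 type I interferon response genes 5 fell and 23 were not called, with a median of -0.29, and 26 had a log2 fold change below 0. The interferon-induced GTPase Mx1 fell from 98.7, 111 and 111 to 58.8, 54.7 and 52.1 (-0.95 ± 0.14, limma adjusted p = 0.00775) and was steady. The other 4 calls were not, and 1 of the 5 was left without WT array 3 or Id3KO array 1, 2 without WT array 2 and 3 without Id3KO array 2.

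In the cell cycle list 2 of 42 genes were called, Cdkn1a (0.33) and Ccnd2 (-0.57), which is 4.76% beside 5.58% of all genes. Each lost the call when any WT array was left out (adjusted p of at most 0.142 and 0.160). Other Ccnd2 probe sets gave -0.57, -0.76, -0.70 and -0.80, called, and -0.62 and -0.15, not called. A second Cdkn1a probe set (0.24) was not called. For 20 oxidative phosphorylation genes and 8 Gimap genes, which are GTPases of lymphocyte survival, no call was made. In the Bcl2 family 1 of 15, Mcl1 (-0.46), was called, and the call was lost whichever array was left out (at most 0.134). Of 32 chaperone genes 1 rose, Creld2 (0.55), which was lost without WT array 1 or 3 or any Id3KO stage 2 array (at most 0.0836). Of 18 glycolysis genes 1 rose (Eno3, 0.50) and 1 fell (Hk1, -0.46), and both calls were lost without WT array 2 or 3 (at most 0.118 and 0.122). In the naive T cell list Ccr9 alone rose, and Foxo1 (-0.84) and Il7r fell, both lost without WT array 2, WT array 3 or Id3KO array 1 (at most 0.107 each).

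**Figure D4:**
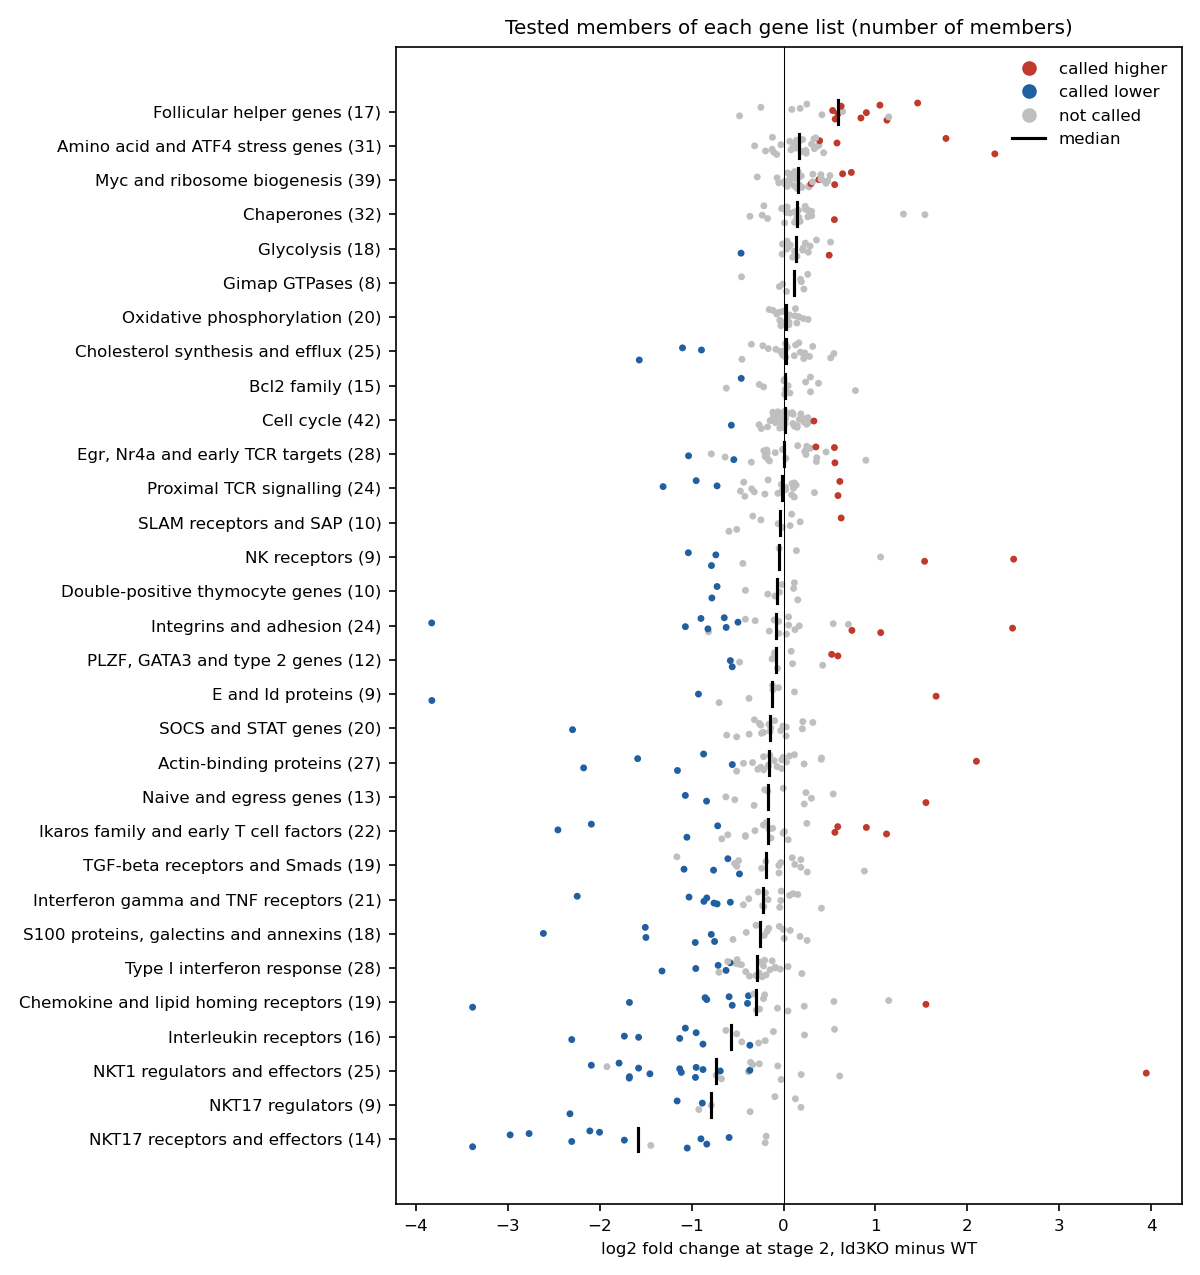
Log2 fold change at stage 2, Id3KO minus WT (x axis), of each tested member (points, coloured by call) of 31 gene lists, ordered by their medians (black bars). The NKT17 receptor list lies lowest, with a median of -1.59 and 11 of 14 members called lower, and the follicular helper list highest, with 0.59 and 9 of 17 called higher.

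Markers of other cells that the gate could hold were measured beside these lists. Of 13 myeloid and dendritic, 6 thymic epithelial and stromal, 4 erythroid and 6 regulatory T cell markers kept for the test, none was called. The summed intensity of the myeloid markers was 1204 to 1242 in WT and 1155 to 1232 in Id3KO. Of 5 B cell markers, Ighm rose from 827, 1145 and 1167 to 2037, 1910 and 1770 (0.88 ± 0.15, limma adjusted p = 0.0125). Other Ighm probe sets gave 1.15, called, and 0.08, not called. The B cell genes Cd79a, Pax5 and Cd22 lay between 49.8 and 63.4 on all 6 arrays, at background. Of the 5 B cell markers, 3 had a log2 fold change above 0 and 2 below, the lowest at -0.46 and not called. Of 5 gamma delta T cell markers 5830411N06Rik, the gene of the scavenger receptor SCART2, fell from 488, 410 and 470 to 74.8, 179 and 112 (-1.99 ± 0.27, adjusted p = 0.00521). Of these 5 markers, 3 had a log2 fold change below 0 and 2 above, at most 0.19. The summed intensity of the 5 was 2708 to 3127 in WT and 739 to 1962 in Id3KO. Blk and Cd163l1, which the NKT17 lists also hold, are among them and were not called. The part of such cells in the NKT17 result was not tested. Of 5 NK cell and innate lymphoid markers Gzmc (-0.40) and Il7r fell, and neither was called without WT array 2, WT array 3, Id3KO array 1 or either WT stage 1 array (at most 0.116 and 0.107). The other 3 had log2 fold changes above 0, up to 0.74, and the median of the 5 was 0.06.

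The X-linked Xist and Y-linked Eif2s3y were both present on most arrays. Eif2s3y read 144, 196 and 316 in WT and 251, 212 and 51.0 in Id3KO, and Xist 1646, 2221 and 1625 in WT and 1888, 2128 and 2870 in Id3KO. Neither was called, and their part in any result was not tested.

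Genes near Id3 on the chromosome were also counted. Among the 100 protein-coding genes on either side, 126 were tested in all, and 12 were called, 5 higher and 7 lower. That is 9.52%, beside 5.58% of all genes. Runx3 lies among them, 21 genes from Id3. Others were Ubxn11, which rose by 1.51, and Sh3bgrl3, Cnr2 (the cannabinoid receptor CB2) and Cd52, which fell by 1.36, 0.87 and 0.67 on the log2 scale. The part of this position in their changes was not tested.

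The stage 1 arrays give the same genes 1 step earlier in maturation, on separate samples. There 0.802% of probe sets were called between the genotypes. Of the 457 probe sets higher at stage 2, 418 had the same sign at stage 1 and 99 were called higher there, which is 21.7% of the stage 2 list and 86.1% of the stage 1 list. Of the 598 lower ones, 550 had the same sign and 67 were called, 11.2% of the stage 2 list and 77.9% of the stage 1 list. The stage 1 comparison has 2 arrays in each group, and these probe sets were chosen on their stage 2 values, so the difference between stages was tested on its own.

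That test, the stage 2 effect minus the stage 1 effect, called no probe set in limma, while 1772 (7.07%) had an unadjusted p under 0.05. Ccr6 came closest. It changed by -3.38 at stage 2 and by -0.21 at stage 1, a difference of -3.18 ± 0.32 (SE, limma adjusted p = 0.0644). It passed without WT stage 2 array 1 (adjusted p = 0.0190) or array 3 (0.0170). It also passed with a stricter filter (0.0437), with array weights (0.0355) and with 1 probe set per gene (0.0222). The WT stage 1 arrays read 73.1 and 62.0 for Ccr6, near background, so a fall at stage 1 had little room to show. Clnk, an adaptor of immunoreceptor signalling named here after its value was seen, had a difference of -1.15 and passed in 4 settings, with no filter, with an intensity trend, with array weights and with 1 probe set per gene (0.0222 to 0.0355).

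Some NKT17 receptor and effector genes had larger log2 fold changes at stage 2 than at stage 1, such as Serpinb1a (-2.77 and -0.02), Sdc1 (-2.97 and -0.49) and Il1r1 (-1.73 and -0.34). On the WT stage 1 arrays Serpinb1a read 42.2 and 48.2, at background, Sdc1 191 and 74.1, and Il1r1 108 and 77.3. A fall at stage 1 had little room to show for Serpinb1a, and less room than at stage 2 for Sdc1 and Il1r1. Socs3, which is on neither NKT17 list, had -2.29 and -0.56. Of the NKT17 regulators, Rora had -1.16 and -1.46, Maf -0.88 and -1.05, and Ahr -2.32 and -0.97, each called at both stages. None of these differences passed the test between stages. Of the 25 largest rises 13 were called at stage 1 as well, among them Gzma (3.95 and 4.46), Garem1 (3.11 and 3.83) and Stc2 (1.77 and 1.91). The other 12 were not, among them Arhgap24 (2.29 and 1.43), Homer2 (2.14 and 1.25), Itih5 (1.78 and 1.05), Lztfl1 (1.72 and 0.63), Mapk12 (1.70 and 0.41) and Fgf18 (1.67 and 0.75). Their differences between stages did not pass the test. Of the 24 largest falls besides Id3, 9 were called at both stages, among them Capg (-2.17 and -1.99) and F2r (-1.74 and -1.63).

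**Figure D5:**
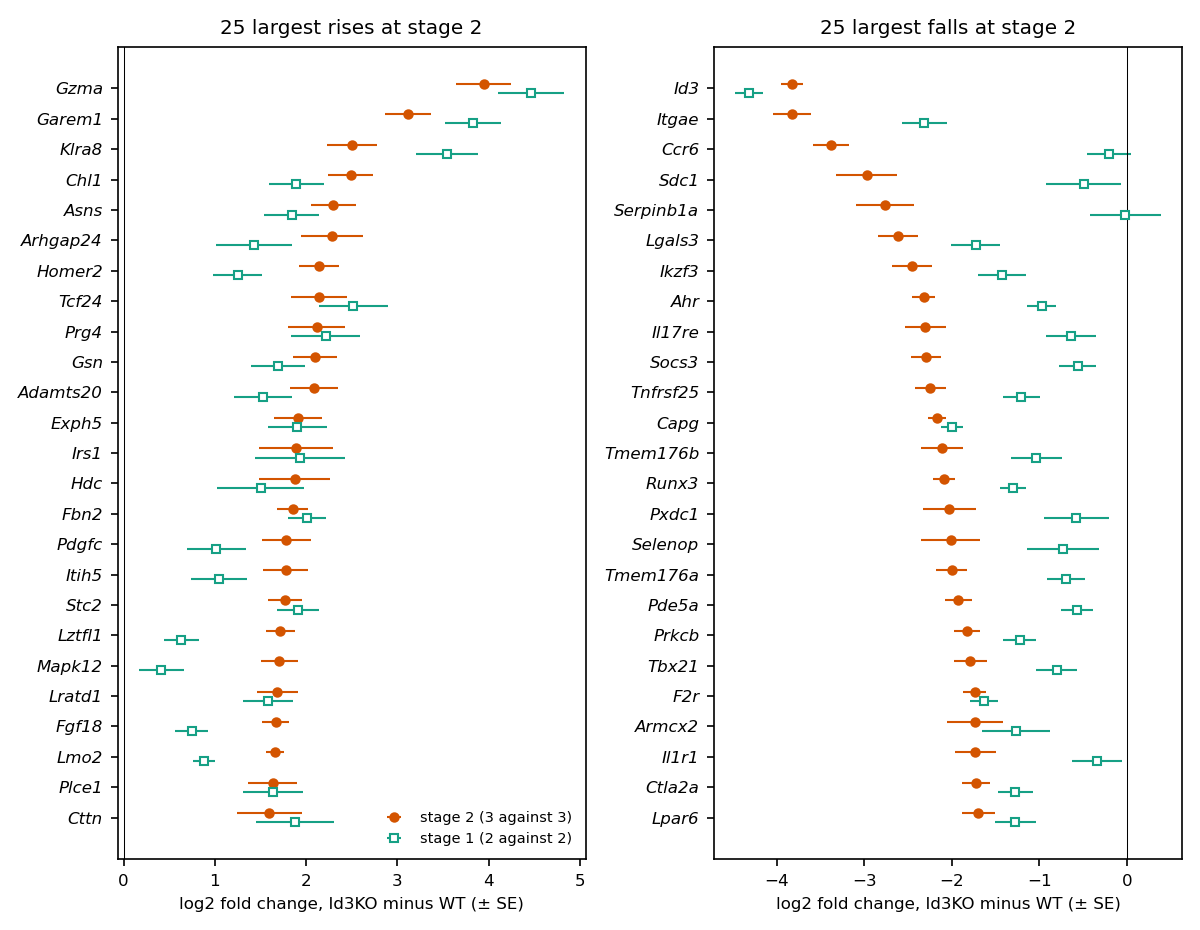
Log2 fold change, Id3KO minus WT, with its SE (x axis) for the 25 largest rises (left) and falls (right) at stage 2, from 3 against 3 arrays at stage 2 (filled circles) and 2 against 2 at stage 1 (open squares). Genes were chosen on the stage 2 values. Capg and F2r have like values at both stages, and Ccr6 and Serpinb1a lie near 0 at stage 1. WT levels of Ccr6 and Serpinb1a were at or near background at stage 1.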

How the data were processed

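The 10 Affymetrix arrays held RNA of sorted thymic iNKT cells, with biotin labelling after 2 rounds of amplification per the labels. The deposited values are intensities of probe sets, linear in scale, that the authors had normalized with RMA per the submitters' processing notes, in a version not given in the sources used here. Log2 of them was taken. Array medians lay between 54.8 and 55.5. Arrays give no read depth, so their number limits the precision.

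Probe sets were kept when log2 intensity exceeded the table median of 5.78 on at least 2 arrays. Of the 25061 kept, 20942 had 1 gene in the platform annotation, 593 several and 3526 none. The model, in limma 3.58.1 (R 4.3.3), gave each of the 4 groups a mean (6 residual and 2.80 prior degrees of freedom) and used two-sided moderated tests and Benjamini-Hochberg adjustment over all kept probe sets. An adjusted p under 0.05 is a call, and limma's adjusted p is meant throughout. A gene is represented by its probe set of highest mean, and its other probe sets are not given for every gene. Of 339 called genes with several probe sets, 118 had another called the same way. For 1 gene another was called the opposite way.

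Named genes were Id3, the 25 highest and the 25 lowest log2 fold changes among called, non-overlapping probe sets of 1 gene, without gene models, and members of the 40 lists. The members and lists were chosen with earlier results of these data known. The pipeline was tested on simulated data. The alternatives were no filter, a stricter filter (log2 above 6.50, 15216 probe sets), quantile normalization, median centring, a robust prior with an intensity trend, array weights, a block for the replicate number, only the brightest probe set of a gene, only the 6 stage 2 arrays, a fold of at least 2, and each array left out.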

Additional observations from a re-analysis of the deposited data

How the results depend on the processing

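Across 20 alternatives the fall of Id3 kept its direction and its call. The counts of higher and lower probe sets, 457 and 598, fell to 293 and 333 with only the 6 stage 2 arrays and to 122 and 139 with a fold of at least 2, the last a subset by construction. Of the 626 calls with 6 arrays, 596 were among the 1055. Leaving out 1 array gave 238 to 409 higher and 264 to 491 lower, lowest without WT stage 2 array 3. The other settings kept both counts within 1.5 times (419 and 496 with no filter, 581 and 751 with array weights). In the test between stages, no higher effect was called in any setting, and lower effects numbered 1 with no filter, the stricter filter or the intensity trend, 2 with array weights or with the brightest probe set of each gene, and 0 to 1 with 1 array left out. The causes were not tested.

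The replicate numbers were not used to pair the arrays in the main fit. Deviations of same-numbered stage 2 arrays from their group means correlated at -0.02, -0.02 and 0.13. Those of differently numbered arrays correlated at -0.10 to 0.09. With 3 arrays in each group these values cannot show whether arrays were processed in pairs. With the replicate number as a block, 322 probe sets were higher and 457 lower, and 705 of the 1055 calls were kept. Of the 50 named genes 45 kept their call in all 19 refits, and of 157 called genes followed 71 lost it in some setting. No called value reversed. Genes near background are limited by it, since their fold changes depend on that background.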
